A study of Mus musculus with 6 samples.

Results

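The genes described here carry the Wnt signal across the cell membrane and report its output: the co-receptors Lrp5 and Lrp6, the receptors Fzd8 and Lgr4, the secreted agonists Rspo2 and Rspo3, and the target or feedback genes Axin2, Nkd1, Nkd2 and Lef1. They were chosen by symbol, with the probe set of highest mean over the 6 arrays kept where a gene had more than 1. All 10 were measured, out of 22180 genes with a probe set of a single symbol. The samples were whole-cell RNA of MC3T3-E1 (ATCC CRL-2593), a pre-osteoblast line derived from mouse calvaria. In both groups the cells reached confluence and were then kept for 14 days in osteogenic medium, with ascorbic acid at 50 µg/ml and β-glycerophosphate at 10 mM. To 3 samples NU7441 was added at 1 µM, a small molecule that blocks DNA-PKcs, the catalytic subunit of the DNA-dependent protein kinase. The other 3 received the vehicle DMSO. The comparison asks how inhibition of this kinase alters transcripts of differentiating osteoblasts, in a series on the coregulator alphaNAC as a substrate of the kinase.

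In canonical Wnt signalling a Wnt ligand brings a frizzled receptor together with Lrp5 or Lrp6, the scaffold Axin is drawn to the membrane, and β-catenin escapes destruction and acts in the nucleus with factors of the TCF and LEF family. R-spondins bind receptors of the Lgr family and remove the ubiquitin ligases Znrf3 and Rnf43 that clear frizzleds from the surface, so they amplify the signal. Axin2, Nkd1 and Lef1 are commonly induced by β-catenin and serve as readouts of the pathway, and Axin2, Nkd1 and Nkd2 also damp it. In bone the pathway is known to favour osteoblast formation, and loss of LRP5 lowers bone mass.

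Promoter windows from RefSeq (GRCm38.p6), of 250 bases before to 50 after an annotated start, were matched for 5 of the 10 genes, with 8 windows in all. The windows of 3 target genes are shown because binding of TCF and LEF factors near such genes is the usual last step of the pathway. Letters in capitals mark CTTTGA or CTTTGT, the core bound by TCF and LEF factors, on either strand. Each window shown is that of an annotated start lying inside the gene's span, and those of Axin2 and Nkd1 hold no capitals.
Axin2, chr11:108920099-108920398, plus strand: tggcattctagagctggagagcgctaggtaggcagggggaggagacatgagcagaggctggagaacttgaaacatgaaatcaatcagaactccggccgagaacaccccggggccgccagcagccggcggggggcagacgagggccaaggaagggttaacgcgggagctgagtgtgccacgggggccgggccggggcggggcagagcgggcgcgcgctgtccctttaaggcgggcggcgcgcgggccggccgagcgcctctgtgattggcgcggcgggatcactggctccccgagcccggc
Nkd1, chr8:88527383-88527682, plus strand: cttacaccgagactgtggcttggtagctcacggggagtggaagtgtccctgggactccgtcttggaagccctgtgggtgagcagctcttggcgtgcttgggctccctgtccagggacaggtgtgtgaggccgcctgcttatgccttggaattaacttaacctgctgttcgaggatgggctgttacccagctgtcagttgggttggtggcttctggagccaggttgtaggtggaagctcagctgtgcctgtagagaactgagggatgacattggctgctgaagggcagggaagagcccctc
Lef1, chr3:131156044-131156343, plus strand: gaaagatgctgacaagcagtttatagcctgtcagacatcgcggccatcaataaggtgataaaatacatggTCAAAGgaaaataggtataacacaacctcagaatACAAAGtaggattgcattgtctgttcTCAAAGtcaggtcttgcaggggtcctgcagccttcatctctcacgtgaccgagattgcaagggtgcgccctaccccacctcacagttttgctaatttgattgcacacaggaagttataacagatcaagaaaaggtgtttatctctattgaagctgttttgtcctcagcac

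CTTTGA occurred in 1 of the 8 windows and in 16.0% of all 32851 windows of the RefSeq table, and CTTTGT in 1 of 8 and 18.7%. Of the 4 Lef1 windows, the one shown was picked because it alone held a match. The other 3, of which 2 overlap at the gene's first start, held 0. Both motifs were in the window shown, where the 3 matches began at positions -180, -146 and -120 from the start, all on the minus strand. The AP-1 motif TGANTCA and the cAMP response element TGACGTCA, searched on both strands, were in 0 of the 8 windows, against 7.81% and 1.79% of all windows. With so few windows these counts describe the sequences shown and bear on no factor.

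Transcript levels were read as log2 array signal, 1 value per gene and array. The array medians lay between 6.38 and 6.42 and the lower quartiles between 5.11 and 5.16. Of the osteoblast markers, 9 of 12 were measured, among them Sp7, Alpl, Ibsp and Col1a1, and Runx2, Bglap2 and Spp1 were not analysed here. Ptprc, the pan-leukocyte marker, lay between 4.49 and 4.74 in all 6 arrays, below the lower quartiles. Nothing in the labels ties the replicates to separate cultures. The p-values therefore reflect the scatter among these 6 samples alone, and that scatter may be technical. The SEs, intervals and p-values come from limma, which draws each gene's variance towards a value estimated over all genes. They are thus not set by a gene's own scatter alone. The number of arrays limits the precision. In such bulk samples, fewer cells of a type and less RNA per cell cannot be told apart.

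None of the 10 genes passed the test with NU7441, and none of all 22180 did either, so percent called was 0% (limma, adjusted p under 0.05). All 10 means were nevertheless above those of DMSO, by 0.02 to 0.29 on the log2 scale, where 51.3% of all genes had a higher mean. The median difference was 0.09 over the 10 genes and 0.00360 over all genes. Rspo2, Fzd8 and Nkd1 had the largest differences of the 10: each was about 1.2 times its DMSO signal, and its 3 values with NU7441 all lay above its 3 values with DMSO. That separation upwards was seen in 3 of the 10 genes and in 6.13% of all genes. The same 3 genes had an unadjusted p under 0.05 with a higher mean, as had 3.49% of all genes, and 6.79% in either direction. Since the genes were chosen with earlier results of these arrays known, none of these counts is independent evidence.

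The R-spondins potentiate Wnt signals at the cell surface. Rspo2, which is needed for limb and lung development, was at 8.01, 8.21 and 8.23 in DMSO 1 to 3 and at 8.44, 8.48 and 8.41 in NU7441 1 to 3. The groups did not overlap, and DMSO 1 lay lowest by a wide margin. The difference was 0.29 (SE 0.08, n = 3 each), or 1.22-fold in array signal with a 95% interval of 1.07 to 1.39, and limma gave an adjusted p of 0.684. Rspo3, which acts in blood vessel growth, was at 6.30, 6.42 and 6.14 in DMSO and at 6.39, 6.32 and 6.39 in NU7441. Its groups overlapped, with DMSO 2 above every NU7441 array. The difference was 0.08 (SE 0.09), with a 95% interval from -0.13 to 0.28 and an adjusted p of 0.893 in limma. Whether the difference of Rspo2 exceeds that of Rspo3 was not tested.

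Fzd8 encodes a frizzled receptor that binds Wnt ligands. Its values were 9.36, 9.42 and 9.21 in DMSO and 9.70, 9.57 and 9.56 in NU7441, with no overlap between groups. The difference was 0.28 (SE 0.08), or 1.22-fold with a 95% interval of 1.06 to 1.39 (limma, adjusted p of 0.697). Lgr4, the R-spondin receptor, was at 8.96, 8.83 and 9.08 in DMSO and at 9.02, 8.98 and 9.38 in NU7441. Its groups overlapped, and NU7441 3 alone lay well above the rest. The difference of 0.17 (SE 0.12, adjusted p of 0.830 in limma) became 0.04 without NU7441 3.

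Both co-receptors, which are partners of frizzleds at the membrane, had narrow groups that overlapped. Lrp6 was at 11.23, 11.15 and 11.23 in DMSO and at 11.28, 11.22 and 11.36 in NU7441, a difference of 0.08 (SE 0.07, adjusted p of 0.840 in limma). DMSO 1 and DMSO 3 lay just above NU7441 2, so the groups overlapped. A second Lrp6 probe set was at 7.25 ± 0.05 in DMSO and 7.32 ± 0.04 in NU7441 (SD, n = 3 each) and gave a difference of 0.07 (SE 0.06). Lrp5 was at 10.55, 10.52 and 10.63 in DMSO and at 10.54, 10.56 and 10.66 in NU7441. Its difference was 0.02 (SE 0.07, adjusted p of 0.959 in limma), smaller than the SD of either group, 0.05 and 0.07. The 95% interval of the ratio of NU7441 to DMSO signal ran from 0.95 to 1.18 for Lrp6 and from 0.91 to 1.14 for Lrp5.

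**Figure D1:**
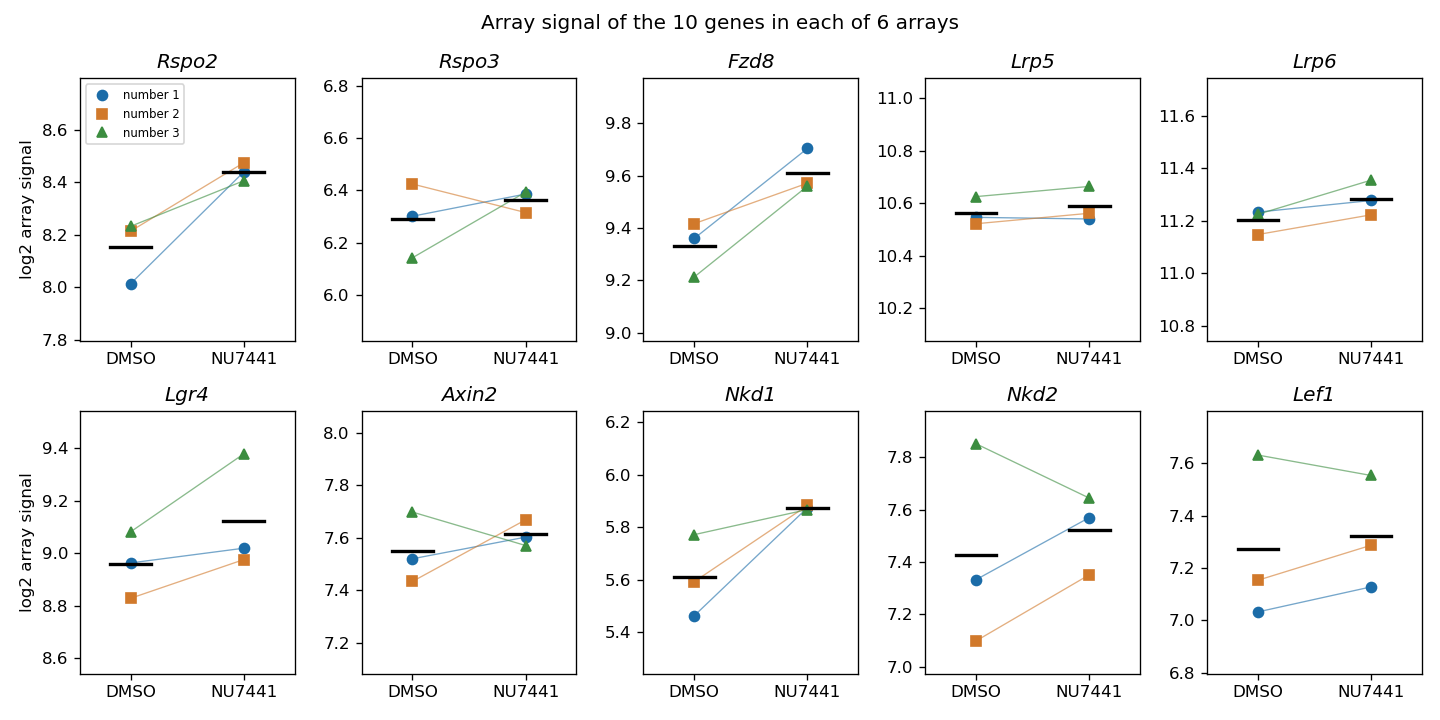
Log2 array signal of each of the 10 genes (vertical axes, each spanning 1 log2 unit) in the 3 DMSO and 3 NU7441 arrays; symbols and colours mark the replicate number, thin lines join arrays of the same number, and black bars are group means (n = 3). The NU7441 values of Rspo2, Fzd8 and Nkd1 all lie above their DMSO values, while Nkd2 and Lef1 spread more within a group than between groups.

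Nkd1 encodes naked cuticle 1, which binds Dishevelled and damps the Wnt signal. It was at 5.46, 5.59 and 5.77 in DMSO and at 5.87, 5.88 and 5.87 in NU7441. The groups did not overlap, and the SD was 0.0078 over the NU7441 arrays and 0.16 over the DMSO arrays. The difference was 0.27 (SE 0.09), or 1.20-fold with a 95% interval of 1.04 to 1.39 (limma, adjusted p of 0.698). All 6 values lay between the lower quartile and the median of their arrays. How far this dim signal exceeds background is unknown. Its related gene Nkd2 was at 7.33, 7.10 and 7.85 in DMSO and at 7.57, 7.35 and 7.64 in NU7441. DMSO 3 was the highest and DMSO 2 the lowest of all 6 arrays, so the NU7441 values lay inside the range of DMSO. The difference of 0.09 (SE 0.19, adjusted p of 0.944 in limma) turned to -0.07 without DMSO 2.

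Axin2, a scaffold of the destruction complex and the usual reporter of β-catenin activity, was at 7.52, 7.43 and 7.70 in DMSO and at 7.60, 7.67 and 7.57 in NU7441. DMSO 3 lay above every NU7441 array. The difference was 0.06 (SE 0.08, adjusted p of 0.908 in limma), with a 95% interval from -0.14 to 0.26. A second Axin2 probe set, at 6.50 ± 0.16 in DMSO and 6.55 ± 0.14 in NU7441 (SD, n = 3 each), differed by 0.05 (SE 0.11). Lef1, a DNA-binding partner of β-catenin and itself a target, was at 7.03, 7.15 and 7.63 in DMSO and at 7.13, 7.29 and 7.55 in NU7441. The high arrays were DMSO 3 and NU7441 3, and the NU7441 values lay inside the range of DMSO. The difference of 0.05 (SE 0.18, adjusted p of 0.966 in limma) turned to -0.07 without DMSO 1, to -0.01 without DMSO 2 and to -0.06 without NU7441 3.

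Arrays of the same number resembled each other in several of these genes. Number 3 was the highest in both groups for 4 genes, Lrp5, Lgr4, Nkd2 and Lef1, against 15.6% of all genes. Number 2 was the lowest in both groups for 3, Lrp6, Lgr4 and Nkd2, against 12.4%. Differences between same-numbered arrays were above 0 in all 3 numbers for 5 genes, Rspo2, Fzd8, Nkd1, Lgr4 and Lrp6, where 16.0% of all genes showed this. For Rspo2 they were 0.43, 0.26 and 0.17 in numbers 1 to 3, for Fzd8 0.34, 0.15 and 0.35, and for Nkd1 0.41, 0.29 and 0.10. Lef1 differed by 0.10, 0.13 and -0.08, and Nkd2 by 0.24, 0.25 and -0.21, so in both genes number 3 ran against the others. Axin2 did likewise, with 0.08, 0.23 and -0.13. With the number as a block, the SE fell from 0.18 to 0.07 for Lef1, from 0.19 to 0.11 for Nkd2 and from 0.12 to 0.07 for Lgr4. It rose from 0.085 to 0.089 for Axin2 and from 0.086 to 0.088 for Rspo3. No gene was called with the block, 0% of all genes, and the adjusted p in limma was 0.487 for Rspo2 and Fzd8 and 0.493 for Nkd1. Their unadjusted p in limma was nevertheless larger with the block than without it. It was 0.0127 against 0.00826 for Rspo2, 0.0111 against 0.0101 for Fzd8 and 0.0242 against 0.0193 for Nkd1. Over all genes, 9.37% had an unadjusted p under 0.05 with the block and 6.79% without it. With the block, an intensity trend and a robust prior, limma called 100 genes, or 0.451%, and 0 of the 10. The adjusted p of that limma fit was 0.130 for Fzd8, 0.183 for Rspo2, 0.374 for Lgr4 and 0.393 for Nkd1. The pairing behind the block was read from these same arrays and is not in the labels, which limits all calls made with it.

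**Figure D2:**
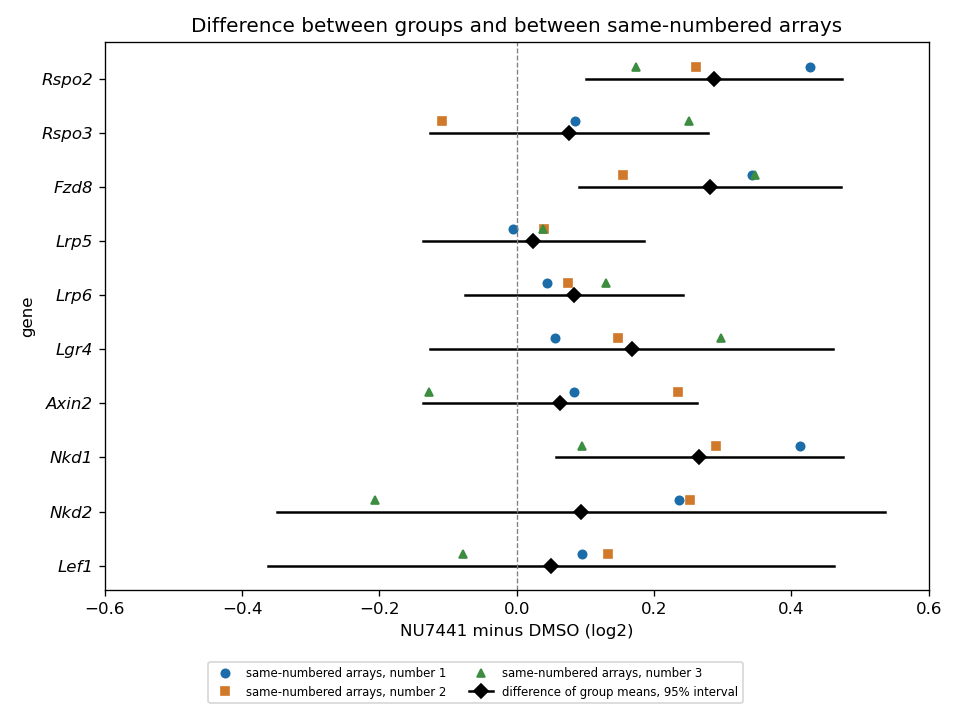
Difference in log2 array signal, NU7441 minus DMSO (horizontal axis), for each gene; diamonds and bars give the difference of group means with its 95% interval from limma, and coloured symbols the differences between arrays of the same number. The intervals of Rspo2, Fzd8 and Nkd1 lie above 0 before any adjustment for the number of genes tested, and in Axin2, Nkd2 and Lef1 number 3 lies below 0.

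The 4 target and feedback genes had a common feature among the control arrays: DMSO 3 was the highest DMSO array in each of them, and in 7 of the 10 genes, against 31.4% of all genes. Of 15 other Wnt target genes 7 shared it. Without DMSO 3 the median difference of the 10 genes was 0.23 in place of 0.09, and it was 0.15 without NU7441 2 and 0.05 without NU7441 3. Without DMSO 3 the groups also did not overlap, upwards, in 6 genes, namely Rspo2, Fzd8, Nkd1, Axin2, Nkd2 and Lgr4, where 12.1% of all genes then separated that way. The SD of the NU7441 arrays was smaller than that of the DMSO arrays in 7 of the 10 genes, among them all 4 target and feedback genes, and in 58.1% of all genes. The median SD of the 10 genes was 0.13 in DMSO and 0.07 in NU7441, and that of all genes 0.11 and 0.09.

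The mean of the osteoblast markers varied with array number and group, as some of the 10 genes did. Not every marker followed that mean: within its group Col1a1 was lowest in NU7441 3, and Col1a2 was highest in DMSO 1. All 9 measured markers had a higher mean with NU7441, as had 51.3% of all genes, though Col1a1 and Col1a2 differed by only 0.04 each. None was called without the block or with it alone. With the block, an intensity trend and a robust prior 5 of 9 were called, against 0.451% of all genes. The mean level of the 9 markers was 10.00, 10.25 and 10.80 in DMSO 1 to 3 and 10.54, 10.71 and 11.24 in NU7441 1 to 3. It was thus highest in number 3 of both groups, as were Lrp5, Lgr4, Nkd2 and Lef1, whereas Rspo2, Fzd8 and Nkd1 were not highest in NU7441 3. The part of these differences in the results above was not tested. The mean level of the 7 chondrocyte markers ranged from 7.34 to 7.49 in DMSO and from 7.52 to 7.57 in NU7441, with 5 of 7 higher. That of the 7 adipocyte markers ranged from 5.81 to 5.85 and from 5.66 to 5.80, with 5 of 7 higher. For macrophage markers the ranges were 6.14 to 6.32 and 6.10 to 6.18, with 2 of 5 higher. For endothelial markers they were 5.48 to 5.58 and 5.36 to 5.64, with 2 of 5 higher. For skeletal muscle markers they were 6.19 to 6.38 and 6.31 to 6.38, with 4 of 5 higher. None of these markers was called without the block, and 1, Fabp4 of adipocytes, was called with block, trend and robust prior, at -0.99 (SE 0.19 without the block). Fabp4, named after its values were seen, lay below the array medians in DMSO and below the lower quartiles in NU7441. How far such a dim signal exceeds background is unknown. The part of these markers was not tested either.

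**Figure D3:**
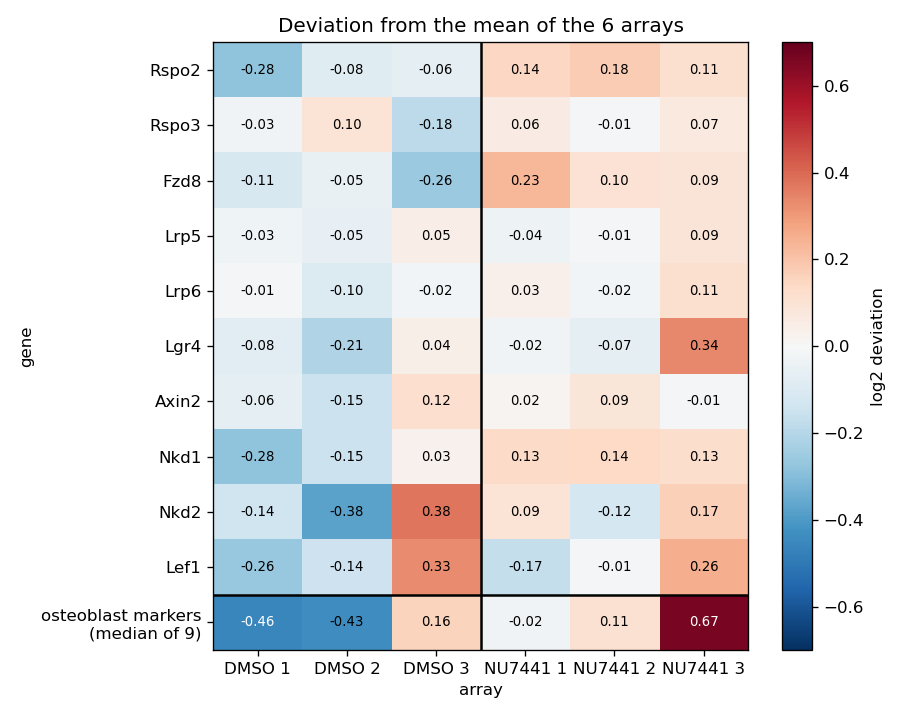
Deviation of each gene's log2 signal from its mean over the 6 arrays, with arrays as columns and genes as rows; the lowest row is the median deviation of 9 osteoblast markers, red is above and blue below the mean. Lef1, Nkd2 and the median of the osteoblast markers are high in DMSO 3 and NU7441 3, whereas Rspo2, Fzd8 and Nkd1 are above their mean in all 3 NU7441 arrays.

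The wider pathway was read from 8 lists of other Wnt genes, of which 100 of 103 were measured and Gsk3a, Csnk1d and Tcf7 were not analysed here. Limma called 0 of the 100 without the block and 0 with it. With block, trend and robust prior it called 3, against 0.451% of all genes. These were Wif1, Tnfrsf19 and Prickle1, all higher with NU7441, the last named after its values were seen. Means of the 100 were higher with NU7441 in 61 and lower in 39, with a median difference of 0.04, where 51.3% of all genes were higher. Groups did not overlap in 11 upwards and 8 downwards, against 6.13% and 6.64% of all genes. Of the genes named here and below, Tmed5, Sfrp4, Axin1, Apc and Pygo2 separated downwards. Rspo4, Wnt5b, Fzd5, Sost, Ctnnb1, Tcf7l1, Tnfrsf19 and Prickle1 separated upwards. The remaining R-spondin system had 6 of 6 higher and a median of 0.205, the highest of the 8 list medians. Rspo4, a further R-spondin, was at 6.35, 6.33 and 6.39 in DMSO and at 6.58, 6.74 and 6.72 in NU7441, without overlap, a difference of 0.32 (SE 0.07, adjusted p of 0.606 in limma). Rnf43, the ubiquitin ligase that clears frizzleds, differed by 0.28 (SE 0.13) and its relative Znrf3 by 0.01 (SE 0.07). Rspo1 differed by 0.08 (SE 0.06), and the receptors Lgr5 and Lgr6 by 0.13 (SE 0.10) and 0.29 (SE 0.23). In DMSO, Rspo4 lay near the array medians and Lgr5 below them, and how far such signals exceed background is unknown.

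Among the ligands 13 of 19 were higher with NU7441, the smallest p belonging to Wnt5b at 0.25 (SE 0.08), a ligand best known for signals outside the β-catenin branch. Of the other receptors 10 of 13 were higher, the smallest p being that of the frizzled Fzd5 at 0.26 (SE 0.07). Genes of Wnt secretion and release had 1 of 5 higher, with the carrier Wls at -0.07 (SE 0.08) and Tmed5, a cargo receptor, at -0.16 (SE 0.08). Antagonists had 10 of 15 higher. Wif1, which binds Wnt ligands outside the cell, was at 8.20, 8.25 and 9.25 in DMSO and at 9.03, 9.14 and 10.39 in NU7441, again highest in number 3 of both groups, and differed by 0.95 (SE 0.42, limma adjusted p of 0.747, and 0.00404 with block, trend and robust prior). Sost, the inhibitor of Lrp5 and Lrp6 made by osteocytes, differed by 0.29 (SE 0.13), Dkk1 by 0.15 (SE 0.10) and Sfrp4 by -0.27 (SE 0.11). In DMSO, Sost lay below the array medians. With NU7441 it was at 6.33, 6.39 and 6.81, so NU7441 3 lay well above the others.

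Dishevelled and destruction complex genes, which act inside the cell, had 5 of 14 higher and a median of -0.02. Their differences ran from -0.08 to 0.11, with Dvl3 at 0.11 (SE 0.07), Axin1 at -0.08 (SE 0.07), Apc at -0.07 (SE 0.06) and the kinase Gsk3b at -0.03 (SE 0.07). Ctnnb1, which encodes β-catenin, was at 12.04, 12.02 and 12.04 in DMSO and at 12.14, 12.18 and 12.23 in NU7441. Those groups did not overlap, and the difference was 0.15 (SE 0.06, adjusted p of 0.721 in limma). Of the 13 genes of β-catenin and its nuclear partners 9 were higher, with the TCF factors Tcf7l1 at 0.14 (SE 0.06) and Tcf7l2 at 0.09 (SE 0.08), and the co-activator Pygo2 at -0.18 (SE 0.07).

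The other Wnt target genes were divided, with 7 of 15 higher and a median of -0.00147. Tnfrsf19, a receptor of the TNF family, was at 11.00, 10.61 and 11.06 in DMSO and at 11.57, 11.44 and 11.44 in NU7441, without overlap. Its difference was 0.59 (SE 0.12, limma adjusted p of 0.598, and 0.0235 with block, trend and robust prior). The growth regulators Myc and Ccnd1, by contrast, differed by -0.01 (SE 0.16) and -0.01 (SE 0.12), and the matricellular gene Ccn4 by 0.23 (SE 0.19).

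**Figure D4:**
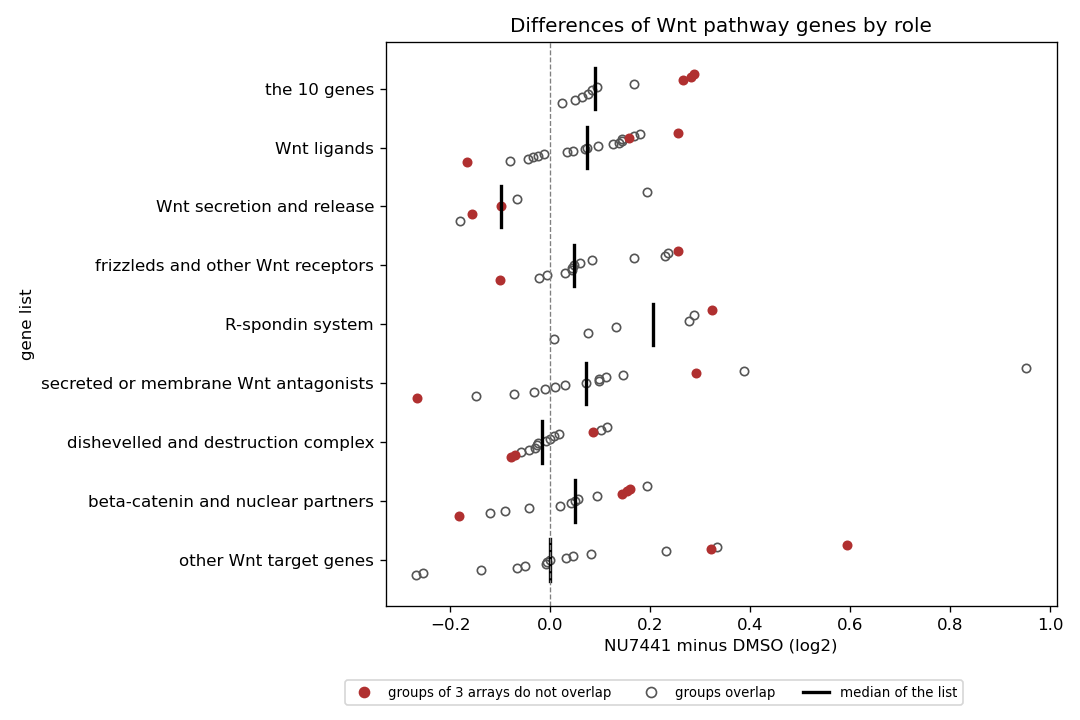
Difference in log2 array signal, NU7441 minus DMSO (horizontal axis), of the 10 genes and of 100 other Wnt pathway genes by list; each circle is a gene, filled where its 3 NU7441 and 3 DMSO values do not overlap, and black bars are list medians. The list medians run from -0.10 for secretion and release to 0.205 for the remaining R-spondin system, with the 10 genes at 0.09.

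The genes whose profile over the 6 arrays lay nearest to 3 of the members were found by the root mean square difference of log2 values centred on each gene's own mean. For Lrp6 they were Tgfb3, a transforming growth factor β ligand, at 0.0103, Tbck at 0.0134 and Mzt2 at 0.0136. For Rspo2 they were Hs3st5 at 0.0347, Tssk1 at 0.0374 and Olfm3 at 0.0398, whose signals lay below 6 in every array. For Axin2 they were Vmn1r43 at 0.0201, Opcml at 0.0230 and Vmn2r13 at 0.0243. The signal of Vmn1r43 lay between 7.72 and 7.99, that of Opcml between 5.05 and 5.29 and that of Vmn2r13 between 3.32 and 3.63. With 22180 genes and 6 arrays some profiles lie close to any gene, so this is a description of these arrays.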

How the data were processed

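Total RNA of the 6 samples was hybridised to Affymetrix arrays with biotin as the label, per the labels' protocols. The deposited table holds 1 value per probe set and array for 41345 probe sets. The authors' deposited values were read as log2 from their range, and how they were background-corrected, summarised and normalized is not given in the sources used here. No further normalization and no filter on level was applied, and 0 columns of other samples were present. Platform annotation gave 23521 probe sets a single symbol, and 22180 genes remained with 1 probe set each.

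The two-sided test was limma's moderated test (version 3.58.1, under R 4.3.3), with lmFit and eBayes on group alone. P-values were adjusted over all genes by Benjamini-Hochberg at a threshold of 0.05. The script was tested on simulated data. Both groups carry numbers 1 to 3, and the deviations of same-numbered arrays from their group means correlated at 0.149, 0.169 and 0.339 over genes, against -0.246 to 0.0938 for different numbers. Subtracting the group means makes an array's covariances with the arrays of the other group cancel out. Positive same-number values therefore push the different-number values down, and the contrast between them is partly fixed in advance. Since each of the 3 same-number values exceeded 0.1, arrays of one number were treated as pairs in the block. The basis for pairing is thus these correlations, as the labels are silent on it. The pairs were therefore read from the same values that the fits with the block then test.

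The 10 genes, the lists and the tests were chosen with earlier results of these data known. Named genes were the 10, a set of pathway genes fixed by name, the gene with the smallest p in each list, and the 3 nearest profiles of Lrp6, Rspo2 and Axin2, passing over predicted genes, small RNAs, immunoglobulin and olfactory receptor genes. Alternatives were the replicate block, alone and with an intensity trend and robust prior, that trend and prior alone, quantile normalization, median centring, the upper 50 percent of genes by level, averaging the probe sets of each gene, weighting arrays by quality, and omitting 1 array at a time. Figures were drawn with matplotlib 3.10.9.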

Additional observations from a re-analysis of the deposited data

How the results depend on the processing

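Under all 14 alternatives 0 of the 10 genes were called, and between 2 and 4 had an unadjusted p under 0.05. Over all genes, 100 were called with the replicate block, an intensity trend and a robust prior, and 0 under the other 13 alternatives. The replicate block changed no call of the 10 genes, with 3 at an unadjusted p under 0.05 as without it. Leaving out 1 array moved the count of genes whose groups do not overlap to between 3 and 6, the 6 without DMSO 3, and the median difference to between 0.0548, without NU7441 3, and 0.226, without DMSO 3. Rspo2 and Fzd8 had an unadjusted p under 0.05 in every alternative, and Nkd1 missed it without DMSO 1 or NU7441 2. Of 138 values of single genes under alternatives, 131 kept their direction and 7 turned, in Lrp5, Nkd2 and Lef1. With array weights Nkd2 was at -0.000131 and Lef1 at -0.0155. With 1 array left out, Lrp5 ran from -0.0136 to 0.0546, Nkd2 from -0.0704 to 0.306 and Lef1 from -0.0695 to 0.230. The filter to the upper 50 percent of genes by level left out Nkd1 and Rspo3, which have no value there. All 10 means stayed higher under quantile normalization and median centring. The count was 8 of 10 with array weights, without DMSO 2 and without NU7441 3, and 9 of 10 without DMSO 1. The cause of these shifts was not tested.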
